A study of Mus musculus with 12 samples.

Results

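The genes described here are 43 members of the complement system, the clotting cascade and the lectins of the liver, out of 28786 gene names on the array. They were chosen by name: every gene probe whose name in the scanner files was a member's symbol, older or current, was taken, which gave 63 probes. C1ra was found under its older name C1r, and 1 further probe of that name, described as C1rb, was left out. Of the 63 probes 59 could be tested, and they measured 42 of the 43 members. Cfd, the protease that starts the alternative pathway, was not well above background on enough arrays to be tested.

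The RNA came from livers of Abcb4(-/-) mice, which lack the canalicular phospholipid transporter and develop a sclerosing cholangitis, and of Abcb4(+/+) mice as controls. For 9 weeks the knockout mice ate a diet with cholic acid (CA), meant to raise disease activity, or with ursodeoxycholic acid (UDCA), meant to lower it. Each diet group had 5 livers on 6 arrays, because 1 liver was measured again with the dyes exchanged, and the labels do not say which. Every array held knockout RNA in one dye and wild-type RNA in the other, with the knockout in Cy5 on replicates 1 to 3 and in Cy3 on replicates 4 to 6. What the wild-type mice ate, and the strain, sex, age and bile acid doses, are not stated in the labels. No knockout liver without a bile acid diet is among these arrays, so the loss of Abcb4 and the diet cannot be told apart within a diet group.

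Complement is a chain of plasma proteases that marks particles for uptake and ends in a pore through membranes. It can be started by C1 bound to antibody, by spontaneous turnover of C3, or by collectins such as the mannose-binding lectins, which recognise sugars and carry the proteases MASP-1 and MASP-2. Coagulation starts when tissue factor meets factor VII and runs through factors X and V to thrombin, which cuts fibrinogen to fibrin. Hepatocytes make most of these plasma proteins, tissue factor is best known from cells around vessels, and several clotting factors need vitamin K, whose uptake from the gut needs bile acids. In whole liver, fewer cells of a type and less RNA per cell cannot be told apart.

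Each value is a log2 ratio, knockout over wild type on 1 array, negative where the knockout is lower, and errors are standard errors of the fit over 6 arrays a group. A gene was called at an adjusted p under 0.05 over all 21689 tested probes, and was represented by its brightest tested probe. The median spot intensity ran from 250.2 to 1296.4 in green and from 59.2 to 158.2 in red, and 1.27% to 5.97% of spots were saturated in green against 0% to 0.961% in red. The Abcb4 probes fell in both diet groups, A_52_P223194 by 2.73 ± 0.21 with CA and by 1.77 ± 0.21 with UDCA, lower on all 12 arrays, and A_51_P249118 by 0.78 ± 0.20 and 1.26 ± 0.20, lower on 5 of 6 arrays of each group. Of 15 hepatocyte markers 14 were measured.

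F9, Klkb1, F11 and C8b were among the members lower in both diet groups, and F3, the tissue factor gene, was higher with CA. Other members of both kinds are not shown. The bases just upstream of these 5 members follow. Each is the 250 bases before the transcription start in RefSeq (GRCm38.p6), read 5′ to 3′ on the gene's strand, with capitals for matches to a motif named after the sequences.

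F9 (chrX:59999214-59999463, plus strand): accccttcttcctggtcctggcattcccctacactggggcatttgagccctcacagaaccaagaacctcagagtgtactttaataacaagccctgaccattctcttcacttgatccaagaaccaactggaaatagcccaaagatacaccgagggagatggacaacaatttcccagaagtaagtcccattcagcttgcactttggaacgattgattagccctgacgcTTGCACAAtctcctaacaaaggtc
Klkb1 (chr8:45294836-45295085, minus strand): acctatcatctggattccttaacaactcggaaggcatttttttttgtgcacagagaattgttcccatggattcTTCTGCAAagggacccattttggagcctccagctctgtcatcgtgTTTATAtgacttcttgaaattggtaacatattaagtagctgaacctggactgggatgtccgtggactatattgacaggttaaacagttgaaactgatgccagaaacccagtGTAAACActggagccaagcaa
F11 (chr8:45262032-45262281, minus strand): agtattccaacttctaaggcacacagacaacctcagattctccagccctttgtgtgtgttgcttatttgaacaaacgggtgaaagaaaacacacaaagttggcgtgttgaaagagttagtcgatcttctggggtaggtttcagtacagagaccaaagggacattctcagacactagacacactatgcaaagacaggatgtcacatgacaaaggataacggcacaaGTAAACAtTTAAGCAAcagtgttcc
C8b (chr4:104766067-104766316, plus strand): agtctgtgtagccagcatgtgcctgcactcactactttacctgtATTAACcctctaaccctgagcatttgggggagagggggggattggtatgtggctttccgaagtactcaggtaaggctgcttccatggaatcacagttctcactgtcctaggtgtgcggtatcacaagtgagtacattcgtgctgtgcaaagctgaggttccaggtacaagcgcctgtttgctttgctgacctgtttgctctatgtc
F3 (chr3:121723287-121723536, plus strand): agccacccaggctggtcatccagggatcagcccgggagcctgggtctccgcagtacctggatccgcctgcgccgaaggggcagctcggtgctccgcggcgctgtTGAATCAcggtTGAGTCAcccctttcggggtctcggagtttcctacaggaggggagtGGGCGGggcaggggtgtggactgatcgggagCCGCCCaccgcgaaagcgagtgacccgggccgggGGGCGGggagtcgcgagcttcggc

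The motifs searched on both strands were a partial site of HNF1 (GTTAAT), HNF4 (CAAAGTCC), FOXA (TGTTTAC), C/EBP (TTGCNNAA), AP-1 (TGANTCA), the core promoter box recognised by TBP (TATAAA) and the GC box (GGGCGG), and no matches to different motifs overlapped in the members. RefSeq's table held upstream sequence for 34 of the 43 members, and none for Colec10, which was lower in both diet groups. F7 and Masp2, also lower in both, held no match to any of these motifs. A member was counted if any of its starts had a match, and C1s, C8g, Tfpi and Tfpi2 had more than 1 start. The share over all was counted per upstream sequence, so these shares are not counted fully alike. The HNF1 letters lay upstream of 11 of the 34 members (32.4%, against 6.43% of all 32851 upstream sequences of that length). C/EBP letters lay upstream of 8 members (23.5%, against 9.56%). Of these F9, F11, Klkb1 and C9 were called lower with CA, and C1s, C3, Fga and Fgb were not called. FOXA letters lay upstream of 2 members (5.88%, against 3.17%), the neighbouring genes F11 and Klkb1, 25 and 21 bases before their starts. AP-1 letters lay upstream of 5 members (14.7%, against 6.75%), and F3 held a pair of them, 146 and 135 bases before its start. GC boxes lay upstream of 5 members (14.7%, against 32.7%), of which F3, Pros1 and Tfpi were called higher with CA and F5 and Tfpi2 lower. The TBP box lay upstream of 4 members (11.8%, against 12.4%), and the HNF4 letters lay upstream of 0 members (against 1.2% of all). A match shows only that the letters are there, not that a factor binds.

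With CA, 15 of the 42 measured members fell and 5 rose, while 22 did not pass the test. Over all 15374 tested genes 22.7% fell and 37.7% rose, so falls made up a larger share among the members and rises a smaller one. The median log2 ratio was -0.37 over the members and 0.10 over all genes. With UDCA, 7 members fell and 3 rose, against 8.71% and 17.4% of all genes, with a median of -0.21 over the members and 0.04 over all genes. At least 2-fold changes were seen in 7 members that fell and 2 that rose with CA, and in 2 that fell and 0 that rose with UDCA.

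These counts rest on the loess step, which is meant to remove the part of the dye bias that changes with intensity. A fitted dye effect remained after it. Its median size was 1.70 for members saturated on 6 or more arrays and 0.17 for members saturated on fewer. When each array was only centred on its median, 1 member fell and 4 rose with CA (4.9% and 25.6% of all genes), 1 fell and 1 rose with UDCA, and the median of all genes moved from 0.10 to 0.30 with CA and from 0.04 to 0.32 with UDCA. Colec10 was the member that fell in both groups under either treatment of the data. With every saturated spot left out, 25 members could be measured, of which 14 fell and 5 rose with CA, against 24.3% and 39.4% of the 14733 genes tested that way.

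**Figure D1:**
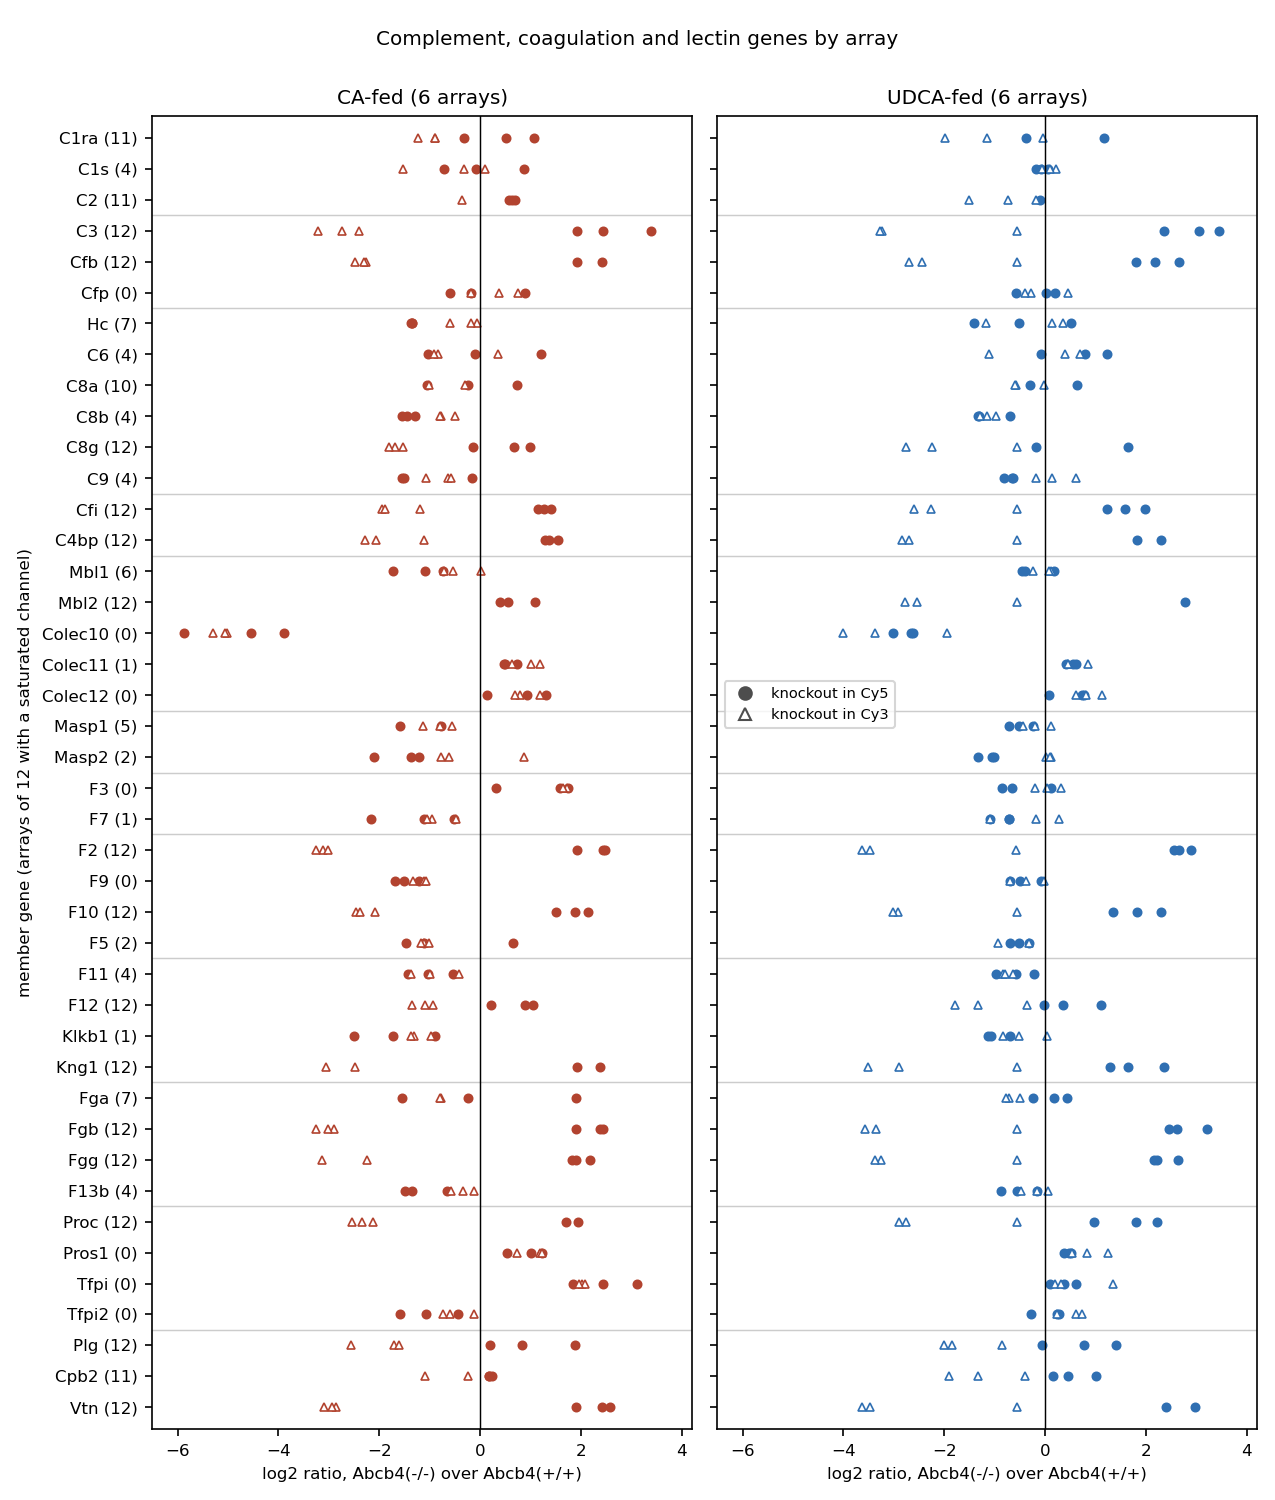
Log2 ratio of knockout over wild type (x axis) of each measured member (rows, by role, with the number of the 12 arrays on which either channel was saturated) on each CA array (left) and UDCA array (right), filled circles with the knockout in Cy5 and open triangles with it in Cy3. Members saturated on 12 arrays, such as C3, F2 and Vtn, split by dye, whereas Colec10 lies below 0 on all 12 arrays.

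The lectin pathway held the largest change of the members. Colec10, the liver collectin CL-L1, ran from -5.88 through a median of -5.04 to -3.88 over the CA arrays and from -4.01 through -2.84 to -1.95 over the UDCA arrays. Every array lay below 0, and the diet groups overlapped only between the CA array at -3.88 and the UDCA array at -4.01. It fell by 4.95 ± 0.23 with CA, a 30.8-fold change (adjusted p = 6.72e-10), and by 2.94 ± 0.23 with UDCA, a 7.67-fold change (adjusted p = 4.53e-07). No spot of Colec10 was saturated, and the knockout signal was well above background on 5 of the 6 CA arrays. The size of the CA change depended on the processing: it was -7.04 with the scanner software's ratios and lay between -5.17 and -4.70 under the other alternatives.

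Colec11 (CL-K1), which pairs with Colec10 in plasma, moved the other way. Its values ran from 0.48 through 0.68 to 1.19 with CA and from 0.42 through 0.51 to 0.86 with UDCA, above 0 on all 12 arrays. It rose by 0.75 ± 0.10 with CA (adjusted p = 1.51e-05) and by 0.56 ± 0.10 with UDCA (adjusted p = 0.000874). Colec12, a scavenger receptor collectin of the cell surface, rose by 0.84 ± 0.14 with CA and 0.69 ± 0.14 with UDCA, and its second probe also rose in both. Mbl1, which encodes mannose-binding lectin A, fell with CA by 0.80 ± 0.15 (adjusted p = 0.000236), lower on 5 of 6 arrays, and was at -0.12 ± 0.15 with UDCA. Its spot was saturated on 6 of 12 arrays.

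Mbl2, mannose-binding lectin C, is counted among the 15 falls with CA but has no settled direction. Its spot was saturated on all 12 arrays, and only 3 CA values were usable, all with the knockout in Cy5, at 0.40, 0.55 and 1.09. The fitted value of -1.68 ± 0.50 (adjusted p = 0.0145) is negative because the dye effect, taken from 4 UDCA arrays, was subtracted. Without a dye effect in the fit it was 0.68 (adjusted p = 0.537), with the diet groups fitted alone 0.68 (adjusted p = 0.0151, called higher), and without UDCA replicate 2 it was 0.68 (adjusted p = 0.125).

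The proteases carried by these lectins fell with CA at most of their probes. Masp2 had 3 probes, and the brightest fell by 0.87 ± 0.17 with CA, with 1 array at 0.87, and by 0.53 ± 0.17 with UDCA. Its UDCA values split by dye, between -1.34 and -1.02 with the knockout in Cy5 and between 0.02 and 0.11 with it in Cy3. The UDCA call was lost without any one of the 6 UDCA arrays (between -0.57 and -0.50, adjusted p from 0.0615 to 0.102). The 2 other Masp2 probes fell 2.82-fold and 2.94-fold with CA, and by 0.46 ± 0.11 and 0.62 ± 0.15 with UDCA on the log2 scale. A_51_P448466 lay between -1.79 and -1.24 on the CA arrays and between -0.76 and -0.26 on the UDCA arrays, with no overlap.

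Masp1 gives its proteases MASP-1 and MASP-3 by alternative splicing, and its 4 probes did not move alike. They lie on chromosome 16 of mm7, in minus orientation, and the first 30 of the 60 bases of each are given to set them apart.

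A_51_P472879 (chr16:23108101-23108160): tccaggcaactgaaatctacctcccgagaa
A_52_P216226 (chr16:23110952-23111011): gagtctattcttacatctatcccaacaagg
A_52_P247185 (chr16:23127084-23127143): aactgggaagagtcatcaaaacacactcca
A_52_P54274 (chr16:23138373-23138432): caatgggtgattattttaatctctcagtga

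A_51_P472879, the brightest, fell 2.005-fold with CA (log2 SE 0.14, adjusted p = 2.55e-05) and was at -0.34 ± 0.13 with UDCA (adjusted p = 0.069). A_52_P216226 ran from -1.85 through -1.37 to -0.69 on the CA arrays and from -0.15 through 0.26 to 0.42 on the UDCA arrays. These ranges do not overlap, and the probe fell by 1.26 ± 0.13 with CA alone. A_52_P247185 rose instead, by 0.83 ± 0.11 with CA (adjusted p = 2.70e-05) and by 0.78 ± 0.10 with UDCA (adjusted p = 7.83e-05), above 0 on all 11 arrays with a value. A_52_P54274 was at -0.11 ± 0.10 and -0.06 ± 0.10, with a wild-type signal not well above background on any UDCA array. Which transcripts each probe reads was not tested.

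**Figure D2:**
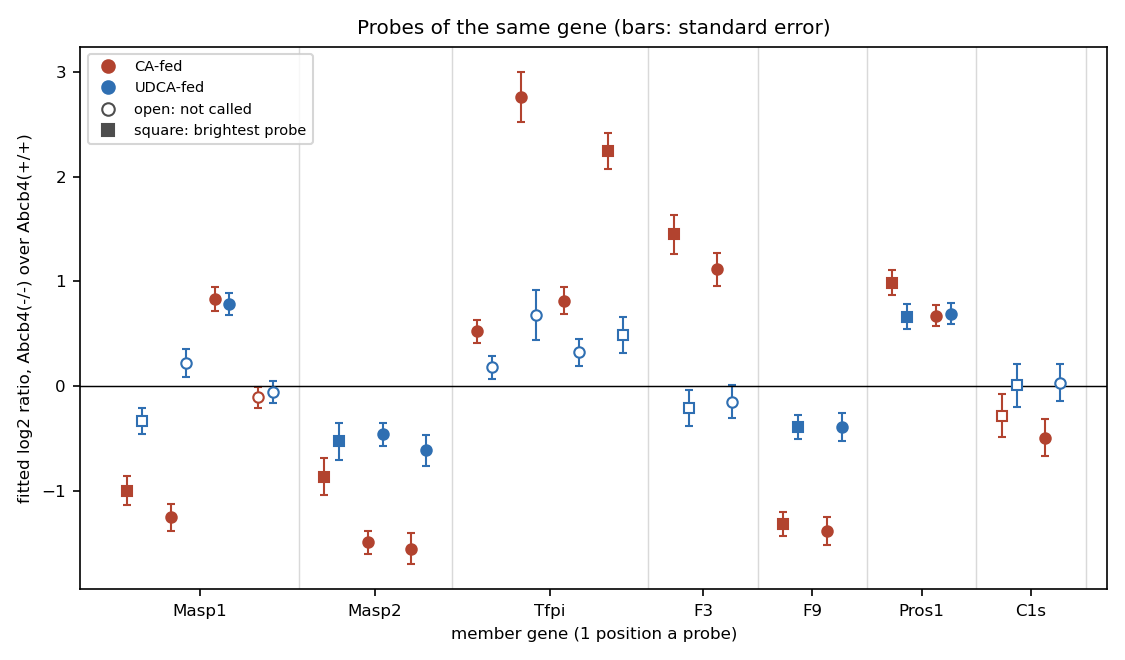
Fitted log2 ratio of knockout over wild type (y axis, bars are standard errors over 6 arrays a group) for each tested probe of 7 members with several probes, CA in red and UDCA in blue, squares for the brightest probe and open symbols for values not called. Of the Masp1 probes 2 were called lower and 1 higher with CA, whereas both F9 probes lie below 0 and both Pros1 probes above 0 in each group.

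Of the 6 measured genes of the membrane attack complex, 3 fell with CA. C8b, the beta chain of C8, fell alike in both groups, by 1.06 ± 0.12 with CA (adjusted p = 3.40e-06) and by 1.13 ± 0.12 with UDCA (adjusted p = 8.88e-06). It ran from -1.55 through -1.04 to -0.49 with CA and from -1.32 through -1.23 to -0.71 with UDCA. All 12 arrays lay below 0, the difference between the diets was 0.07 ± 0.17 (adjusted p = 0.805), and the ranges overlapped. C9, which forms the ring of the pore, fell by 0.92 ± 0.17 with CA (adjusted p = 0.000236) and was at -0.26 ± 0.17 with UDCA. Hc, which encodes C5, fell by 0.82 ± 0.22 with CA (adjusted p = 0.00505), lower on all 6 arrays, and was at -0.35 ± 0.22 with UDCA. Its spot was saturated on 7 of 12 arrays. The CA values of Hc lay between -1.37 and -1.35 with the knockout in Cy5 and between -0.60 and -0.06 with it in Cy3.

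The other terminal genes, C6, C8a and C8g, were at -0.22, -0.43 and -0.59 with CA and did not pass the test, although C8a did without CA replicate 2 (-0.65, adjusted p = 0.0151). C8a is the direct neighbour of C8b on chromosome 4, and its spot was saturated on 10 of 12 arrays against 4 for C8b. None of the early genes was called at its brightest probe: C1ra, C1s and C2, the classical pathway proteases, were at -0.30, -0.28 and 0.18 with CA. C1ra and C2 were each saturated on 11 of 12 arrays, all 6 CA arrays among them, and C2 had only 4 CA values. A second C1s probe fell by 0.50 ± 0.18 with CA (adjusted p = 0.0252), a call that was lost without CA replicate 1, 3, 4 or 5. Cfp, the alternative pathway's stabiliser properdin, was at 0.17 ± 0.18 with CA and -0.10 ± 0.18 with UDCA, with no saturated spot.

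C3, at which all pathways meet, and Cfb, its alternative pathway partner, were at -0.10 ± 0.29 and -0.11 ± 0.24 with CA, with both spots saturated on all 12 arrays. Here the deposited series table gave another answer, 0.93 for C3 (adjusted p = 0.000343) and 0.46 for Cfb (adjusted p = 0.00709) with CA, and 0.71 and 0.66 with UDCA. The scanner software's own ratio for Cfb with CA was 0.66 (adjusted p = 0.0339). A second, dimmer C3 probe was at 0.04 ± 0.21 with CA and 0.22 ± 0.21 with UDCA. Cfi and C4bp, the plasma regulators that cut and bind C4b and C3b, were at -0.20 ± 0.20 and -0.21 ± 0.25 with CA.

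At the start of coagulation the data separated tissue factor from factor VII. F3, tissue factor, ran from 0.32 through 1.65 to 1.74 on the 5 CA arrays with a value and from -0.86 through -0.09 to 0.31 on the UDCA arrays. The lowest CA array, replicate 2, just cleared the highest UDCA array, so the groups did not overlap. F3 rose by 1.45 ± 0.19 with CA (adjusted p = 1.38e-05), a 2.73-fold change, and its second probe rose by 1.12 ± 0.16, with 1 CA array at 0.31 inside the UDCA range. With UDCA the first probe was at -0.21 ± 0.17.

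F7 fell in both groups, by 1.04 ± 0.19 with CA and by 0.59 ± 0.19 with UDCA (adjusted p = 0.0329). Its values ran from -2.16 to -0.47 with CA and from -1.10 to 0.27 with UDCA, so 1 UDCA array lay above 0 and the ranges overlapped. The UDCA call was lost without UDCA replicate 1, 2, 3, 4 or 6 (between -0.63 and -0.42, adjusted p from 0.055 to 0.125).

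Among the factors of thrombin formation F9 and F5 fell. F9, the vitamin K-dependent factor IX, ran from -1.70 through -1.27 to -1.07 with CA and from -0.69 through -0.44 to -0.03 with UDCA. All 12 arrays lay below 0 and the groups did not overlap. It fell by 1.32 ± 0.11 with CA (adjusted p = 1.28e-07) and by 0.39 ± 0.11 with UDCA (adjusted p = 0.0185), and the second probe fell by 1.38 ± 0.13 and 0.39 ± 0.13. The UDCA call was lost without UDCA replicate 3, 4 or 6 (between -0.38 and -0.31), and with median centring alone the UDCA value was 0.03.

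F5, the cofactor factor V, fell by 0.88 ± 0.20 with CA (adjusted p = 0.00196). Its CA values ran from -1.48 through -1.12 to 0.64, with replicate 2 the only array above 0. Without CA replicate 2 it fell by 1.18 with CA and was called in UDCA too, at -0.55 (adjusted p = 0.00428), with a difference between the diets of -0.63 (adjusted p = 0.0184). The UDCA value was also called without CA replicate 3 (-0.61, adjusted p = 0.0462). F2 and F10, prothrombin and factor X, were at -0.43 ± 0.27 and -0.24 ± 0.24 with CA and saturated on all 12 arrays. F10 is the direct neighbour of F7 on chromosome 8.

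In the contact system Klkb1 and F11, neighbours on chromosome 8 that encode plasma prekallikrein and the related factor XI, fell in both groups. Klkb1 ran from -2.50 through -1.35 to -0.90 with CA and from -1.14 through -0.76 to 0.03 with UDCA. It fell by 1.47 ± 0.16 with CA (adjusted p = 2.08e-06) and by 0.70 ± 0.16 with UDCA (adjusted p = 0.00514), and 1 UDCA array lay just above 0. F11 fell by 0.96 ± 0.14 and 0.67 ± 0.14 (adjusted p = 2.79e-05 and 0.00228), and all 12 arrays lay below 0. F12 and Kng1, factor XII and kininogen, were saturated on all 12 arrays and were at -0.21 ± 0.18 and -0.31 ± 0.36 with CA.

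Of the genes of fibrin formation F13b, the carrier chain of factor XIII, fell with CA by 0.76 ± 0.13 (adjusted p = 0.00018), lower on 6 of 6 arrays. With UDCA F13b was at -0.36 ± 0.13 (adjusted p = 0.063). The 3 fibrinogen chain genes Fga, Fgb and Fgg, which lie next to each other on chromosome 3, were at -0.37, -0.41 and -0.37 with CA and did not pass. Fga passed without CA replicate 2 (-0.84, adjusted p = 0.00321), on which both its channels were saturated. Fgb and Fgg, saturated on all 12 arrays, passed without UDCA replicate 6 (both at -0.41).

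The inhibitors of coagulation were split. Tfpi, the inhibitor of the tissue factor and factor VII complex, ran from 1.84 through 2.05 to 3.11 with CA and from 0.10 through 0.34 to 1.34 with UDCA. All 12 arrays lay above 0 and the groups did not overlap. It rose by 2.24 ± 0.17 with CA, a 4.74-fold change (adjusted p = 4.08e-08), and was at 0.49 ± 0.17 with UDCA (adjusted p = 0.0527). The UDCA value was called without CA replicate 2, CA replicate 3 or UDCA replicate 3 (between 0.49 and 0.58).

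The 3 other tested Tfpi probes also rose with CA, but by unequal amounts: A_52_P592007 by 2.77 ± 0.24, A_52_P631889 by 0.82 ± 0.13 and A_51_P383210 by 0.52 ± 0.11. The wild-type signal of the last was not well above background on any CA array, and its rise is at least 1.37-fold when that signal is set to the lowest level that was. Pros1, the anticoagulant cofactor protein S, rose by 0.99 ± 0.12 with CA and by 0.66 ± 0.12 with UDCA (adjusted p = 4.19e-06 and 0.000729), above 0 on all 12 arrays. Tfpi2, a relative of Tfpi that mainly inhibits plasmin, fell by 0.76 ± 0.14 with CA (adjusted p = 0.000251) and was at 0.30 ± 0.14 with UDCA. Its CA values lay between -1.59 and -0.12 and its UDCA values between -0.28 and 0.74.

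Proc, protein C, was at -0.28 ± 0.27 with CA. Plg, Cpb2 and Vtn, which encode plasminogen, the fibrinolysis inhibitor TAFI and vitronectin, were at -0.50 ± 0.23, -0.28 ± 0.21 and -0.33 ± 0.29 with CA, and none of the 3 was called in either group. Plg, saturated on all 12 arrays, was called with CA without CA replicate 2 (-0.74) or UDCA replicate 6 (-0.50).

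**Figure D3:**
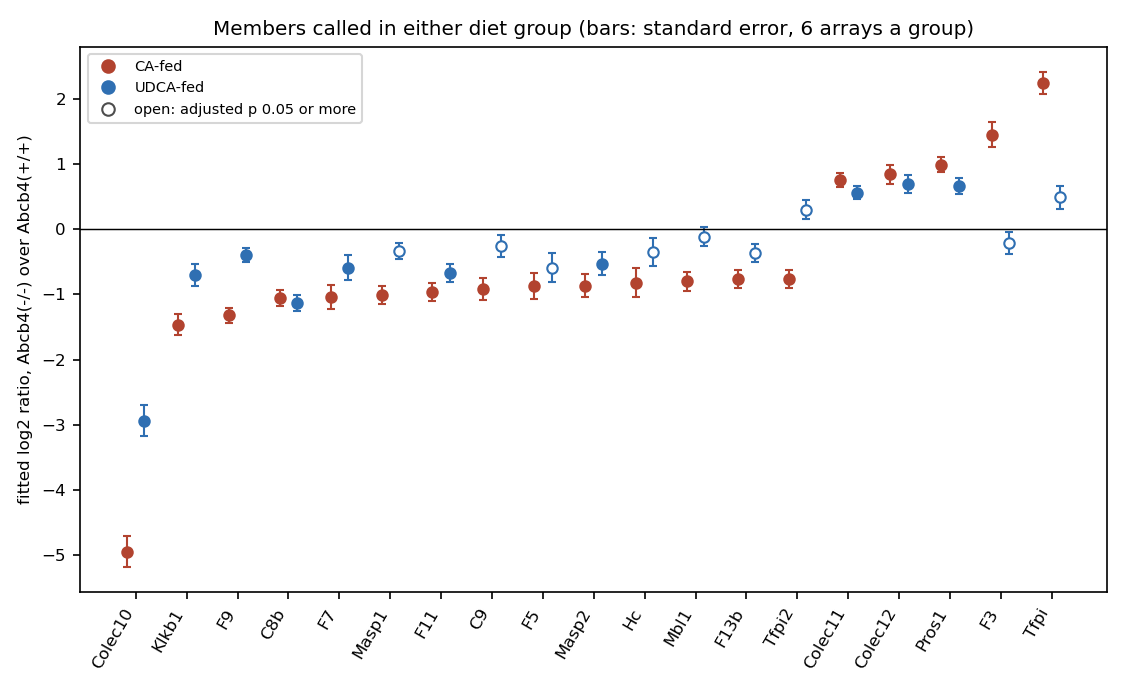
Fitted log2 ratio of knockout over wild type (y axis, bars are standard errors over 6 arrays a group) of the members called in either diet group, CA in red and UDCA in blue, open where the adjusted p was 0.05 or more; Mbl2, whose CA value rests on 1 dye orientation, is left out. Colec10 is lowest at -4.95 with CA and Tfpi highest at 2.24, while C8b is at -1.06 and -1.13.

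Saturation limits what can be said of the most abundant members. Of the 42 members 22 were saturated in either channel on 6 or more arrays. Of these 3 fell (Hc, Mbl1 and Mbl2) and 0 rose with CA, and 0 were called with UDCA. Over all 1138 genes saturated that often, 17% fell with CA. Of the 12 members saturated on 1 to 5 arrays 9 fell and 1 rose with CA, against 28.7% and 41.4% of all genes of that class. Of the 8 never saturated 3 fell and 4 rose, against 22.6% and 40% of all such genes. The dye effect was called for 17 of the 22 often saturated members and for 1 of the other 20, Masp2, against 14.9% of all genes at any saturation. The share among all genes saturated that often was not counted, so the dye effect is not shown to be particular to the members.

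For 13 members the ratio was above 0 on every array with the knockout in Cy5 and below 0 on every array with it in Cy3. This held for 2.32% of all genes at any saturation. C3 is the extreme: its values were 1.91 to 3.44 with the knockout in Cy5, and -3.28 to -0.56 with it in Cy3. Its fitted dye effect was 2.67. On UDCA replicate 6, both channels were saturated for 13 members, and all of these lay between -0.57 and -0.56, so that array gave no ratio for them. The same held on CA replicate 2 for 8 members, which lay between 1.89 (Fga) and 1.91 (C3). Without UDCA replicate 6, members that fell numbered 21 with CA and 10 with UDCA, in place of 15 and 7. Of all genes 24% and 7.69% fell, in place of 22.7% and 8.71%. The members gained with CA, F2, Fgb, Fgg, Vtn, C8g and Plg, were saturated on all 12 arrays. The CA values of F2 and Fgb were -0.43 and -0.41 with and without that array. Fgb still lay between 1.91 and 2.43 on CA replicates 1 to 3 and between -3.26 and -2.90 on replicates 4 to 6. That F2, F10, Fgb, Fgg, Proc, Kng1, Vtn and C3 were not called therefore does not show that their RNA was the same in knockout and wild type. The same limit holds for the other often saturated members that were not called, such as C1ra and C2.

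**Figure D4:**
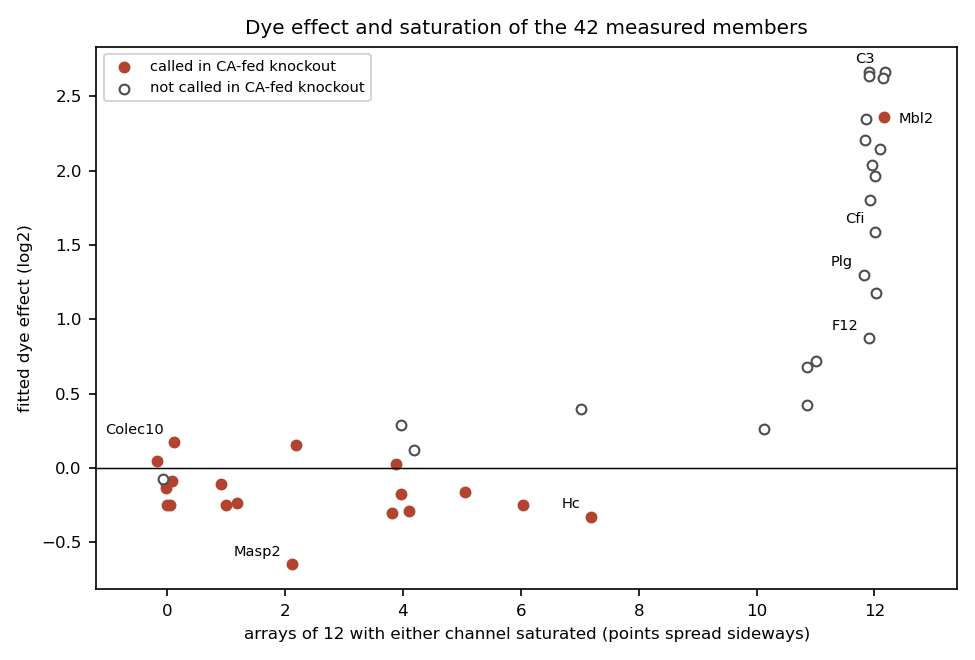
Fitted dye effect (y axis, log2) of each of the 42 measured members against the number of the 12 arrays on which either of its channels was saturated (x axis), filled where the member was called with CA. The dye effect lies between -0.65 and 0.40 for members saturated on fewer than 10 arrays and reaches 2.67 for C3.

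The diets were compared through the difference between the CA ratio and the UDCA ratio, each taken against wild type on its own arrays. Of the 42 members 7 had a lower ratio with CA than with UDCA and 2 a higher one, against 9.07% and 18.7% of all genes, and the median difference was -0.29 over the members and 0.07 over all genes. Only 3 members, F3, F9 and Tfpi, had array values that did not overlap between the diets, against 10.3% of all genes. Slides 1 and 2 held CA arrays only and slide 5 held 1 UDCA array, so only slides 3 and 4 compare the diets directly, each with 1 CA array. The slide was fitted in 2 ways, as a fixed block, which compares the diets within slides, and as a random block, with an estimated correlation of 0.221 within a slide. All 9 members called kept their call with the random block, and the values given next are with the fixed block. On slide 3 that CA array had the knockout in Cy3 and both UDCA arrays had it in Cy5, so dye and diet cannot be told apart there.

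The 2 members with the higher ratio with CA kept their call with the slide as a fixed block. Tfpi differed by 1.76 ± 0.24 (adjusted p = 0.000177), by 1.92 with the slide as a fixed block, and by 1.60 and 1.76 within slides 3 and 4. F3 differed by 1.66 ± 0.25 (adjusted p = 0.000435), by 2.46 with the slide as a fixed block, and by 2.41 within slide 3, with no CA value on slide 4.

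F9 differed by -0.93 ± 0.16 (adjusted p = 0.0008), by -0.95 with the slide as a fixed block, and by -0.82 and -0.71 within slides 3 and 4. Klkb1 differed by -0.76 ± 0.23 (adjusted p = 0.0245), by -1.33 with the slide as a fixed block, and by -0.40 and -0.86 within the slides. The Klkb1 call was lost without CA replicate 5, UDCA replicate 1 or UDCA replicate 5 (between -0.74 and -0.65).

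For the other 5 members the call was lost with the slide as a fixed block and kept with it as a random block (adjusted p = 0.00109 for Colec10, 0.00147 for Tfpi2, 0.0187 for Masp1, 0.0317 for Mbl1 and 0.0496 for C9). With the fixed block Masp2 gained a call (-1.01, adjusted p = 0.0478), although it differed by 0.26 and -0.21 within slides 3 and 4. Mbl2 also gained one (-1.95), but it had no CA value on slide 3 or 4. Its value therefore compares saturated spots of different slides, not the diets within a slide. Colec10 differed by -2.01 ± 0.33 (adjusted p = 0.000613), by -1.73 with the fixed block (adjusted p = 0.0716), and by -2.17 and -2.21 within slides 3 and 4. Tfpi2 differed by -1.06 ± 0.20 (adjusted p = 0.00132), by -1.07 with the fixed block (adjusted p = 0.0536), and by -0.37 and -0.92 within the slides. Masp1 differed by -0.67 ± 0.19 (adjusted p = 0.0174), by -0.99 with the fixed block (adjusted p = 0.0543), and by -0.75 and -0.45 within the slides, and without CA replicate 3 it was at -0.53 (adjusted p = 0.0541).

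Mbl1 differed by -0.68 ± 0.21 (adjusted p = 0.0234), by -0.54 with the fixed block (adjusted p = 0.281), and by 0.16 and -0.37 within slides 3 and 4, so its direction turned on slide 3. Without UDCA replicate 2 the Mbl1 difference was -0.56 (adjusted p = 0.0625). C9 differed by -0.66 ± 0.24 (adjusted p = 0.0494), just inside the threshold, and its call was lost with the fixed block (-0.94, adjusted p = 0.156) and without any one array other than CA replicate 2 (between -0.72 and -0.54).

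Among other genes of the same systems, which are no members, 10 of 25 measured complement genes rose and 7 fell with CA, and 6 rose and 1 fell with UDCA. The shares over all genes given above, 37.7% and 22.7% with CA and 17.4% and 8.71% with UDCA, are the background for these counts too. All 3 chains of C1q, which macrophages make, rose with CA: C1qb by 1.92 ± 0.18, C1qc by 1.35 ± 0.23 and C1qa by 1.32 ± 0.19. Of 8 complement receptors 7 rose with CA, among them Itgam, the alpha chain of complement receptor 3, by 1.85 ± 0.15. Vsig4, the Kupffer cell receptor for C3 fragments, was the exception: it fell by 1.54 ± 0.15 with CA and rose by 0.62 ± 0.15 with UDCA, a difference of -2.16 ± 0.22 (adjusted p = 2.54e-05). The ficolin gene Fcna, a further lectin that starts complement, fell by 1.39 ± 0.17 with CA.

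Of 33 further coagulation, fibrinolysis and contact genes 16 rose and 8 fell with CA, and 13 rose and 3 fell with UDCA. The same shares over all genes are the background here. F13a1, the catalytic chain of factor XIII, rose by 3.00 ± 0.27 with CA, while its carrier F13b fell. Procr, the endothelial protein C receptor, rose by 2.71 ± 0.14 with CA and by 0.47 ± 0.14 with UDCA, a difference of 2.24 ± 0.19 (adjusted p = 8.67e-06). F2r, the thrombin receptor, rose by 2.97 ± 0.13 and 2.13 ± 0.14. Ggcx, the carboxylase that uses vitamin K to finish factor IX and its relatives, fell by 0.93 ± 0.13 with CA, and Kng2, a second kininogen gene, fell by 1.60 ± 0.12 with CA and by 0.55 ± 0.12 with UDCA.

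Of 11 further liver lectins 3 rose and 4 fell with CA, against 37.7% and 22.7% of all genes. Clec4f, the Kupffer cell lectin, fell by 3.37 ± 0.24 with CA and was at -0.17 ± 0.24 with UDCA, whereas the galectin genes Lgals1 and Lgals3 rose by 3.15 ± 0.20 and 2.41 ± 0.11 with CA and by 2.79 ± 0.20 and 1.89 ± 0.11 with UDCA.

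Markers of several liver cell types moved with the diet groups. The background for their counts is again all genes, of which 37.7% rose and 22.7% fell with CA. With UDCA 17.4% of all genes rose and 8.71% fell. With CA all 8 Kupffer cell markers fell (their median by array between -2.09 and -1.14), all 10 cholangiocyte markers rose (between 1.73 and 3.75), and all 10 markers of activated stellate cells and fibroblasts rose (between 1.16 and 2.63). With UDCA 2 Kupffer cell markers rose and 2 fell (between -0.20 and 0.36), while 7 of 10 cholangiocyte markers (between 0.45 and 2.41) and all 10 fibroblast markers rose (between 1.33 and 2.13). Of 14 hepatocyte markers 3 fell with CA and 2 with UDCA, with medians of -0.45 and -0.26. Their medians by array split by dye: they lay between 1.04 and 1.90 on CA replicates 1 to 3 and between -2.73 and -2.17 on CA replicates 4 to 6. With UDCA they lay between 1.19 and 2.10 on replicates 1 to 3, at -3.21 and -3.12 on replicates 4 and 5, and at -0.56 on replicate 6. The few calls among these markers therefore do not show that hepatocyte RNA was the same in knockout and wild type. Of 13 markers of quiescent stellate cells 7 rose and 3 fell with CA, and of 10 markers of monocytes and recruited macrophages 9 rose in each group. Of 10 sinusoidal endothelial markers 2 rose and 4 fell with CA and 1 fell with UDCA. All 3 measured pancreas markers fell with CA, with medians of -3.54 on CA replicate 3 and -3.22 on CA replicate 4 while the remaining 4 lay between -0.50 and -0.24. The call of Cela1, a pancreatic elastase, was lost without either of these arrays (-0.75 and -0.74, adjusted p from 0.161 to 0.162). The part of these cell types in the members' values was not tested.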

How the data were processed

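RNA of knockout and wild-type liver was read in 2 colours on 12 Agilent arrays. Per the file headers, Feature Extraction 9.5.3 gave mean spot and median background intensity per channel, and a processed log10 ratio of red over green. The authors also deposited a log2 ratio per spot and array by a normalization that the labels do not state. Its CA columns ran opposite to knockout over wild type (correlation with the scanner ratios from -0.981 to -0.881, against 0.742 to 0.963 for UDCA), so their sign was turned where they served as an alternative.

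Intensities were corrected with normexp (offset 50) and loess in limma 3.58.1 (R 4.3.3, data.table version 1.17.8), with control and flagged spots at weight 0. Flagged values (0.924%) were set to missing, and spots of a probe averaged. A probe was tested if it was well above background on at least 5 of 6 arrays of a group in either RNA, with at least 2 values per group. The fit held both diets and a dye effect per probe, with 9 residual and 5.95 prior degrees of freedom, and p-values were adjusted by Benjamini-Hochberg. Since 1 liver per group lies on 2 arrays, p-values are somewhat too small. Precision is limited by there being 6 arrays a group. The fit was tested on simulated data. Alternatives changed the background correction, normalization, filter, saturated and flagged spots, dye effect, slide, replicate number, probe choice and arrays.

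All members were accounted for, with array values for the called members of largest size in each comparison (10 at most), up to 2 more per role, every member called between the diets, and up to 4 called genes from each other list. The members and lists were chosen with earlier results of these data known.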

Additional observations from a re-analysis of the deposited data

Results flagged for a closer look

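Single arrays stood apart from the other values of their group in 3 of 83 groups of values examined, where chance gives about 1 in 20 groups. F5 was at 0.64 on CA replicate 2, while the other CA arrays lay between -1.48 and -1.01. F3 was at 0.32 on the same array, with the other CA arrays between 1.58 and 1.74. C2 was at -0.35 on CA replicate 6, with the others between 0.57 and 0.70. Those others were CA replicates 1 to 3, with the knockout in Cy5, and replicate 6 gave the only C2 value with it in Cy3. The C2 spot was saturated on 11 of 12 arrays, so this array cannot be told apart from a split by dye.

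The change against wild type differed between the diet groups, by the test of the difference, for 9 members: Colec10 (-2.01), Tfpi2 (-1.06), F9 (-0.93), Klkb1 (-0.76), Mbl1 (-0.68), Masp1 (-0.67), C9 (-0.66), F3 (1.66) and Tfpi (1.76), each as the CA minus the UDCA log2 ratio.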

How the results depend on the processing

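Of 39 member results called, 7 kept their call and direction under every alternative that could be fitted: the CA values of Colec10, Tfpi, F3, Pros1 and Colec12, the UDCA value of Colec10 and the difference of Tfpi. With median centring and no loess, members called lower came to 1 for CA, 1 for UDCA and 1 for the difference, and members called higher to 1 with UDCA and 1 in the difference. The members with a lower ratio with CA than with UDCA numbered 3 with the scanner software's ratios and 4 without a dye effect. They numbered 4 with the slide as a fixed block, Mbl2 among them, and 14 with the deposited series table. That table called 8 members higher with CA, and 6 higher and 13 lower with UDCA. Leaving out 1 array gave 5 higher and 15 to 21 lower with CA, 3 to 4 higher and 4 to 10 lower with UDCA, and 2 to 3 higher and 5 to 8 lower in the difference.

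Directions turned as follows. F9 with UDCA was at 0.032 (0.0474 for its second probe A_52_P606233) and Kdr, an endothelial marker, at 0.0482 with median centring. Cfb with CA was at 0.66 with the scanner software's ratios and 0.46 in the series table, where C3 with CA was at 0.93 and C4bp with UDCA at 0.30. With the least saturated probe the difference was 0.57 for Fgl1 and -0.23 for Acta2. Mbl2 with CA was at 0.68 without a dye effect and with the diet groups fitted alone, and leaving out 1 array moved it between -2.03 and 0.68 with CA, between -1.96 and 0.61 with UDCA and between -2.30 and 2.64 in the difference, the turned values all without UDCA replicate 2. The cause was not tested.

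Replicate numbers do not pair the samples: residuals of same-numbered CA and UDCA arrays correlated between -0.546 and 0.135. With the replicate number as a block 7 members, Mbl2 among them, were lower and 2 higher in the difference, and C9 lost its call (-0.66, adjusted p = 0.0746). Mbl2 had values in both diets for replicate 2 only. Its value of -2.22 is therefore the difference of 1 pair of saturated spots and supports no call. A saturated spot gives only a bound, which touches 22 members on 6 or more arrays. With saturated spots left out 25 members could be measured. Of these 14 fell and 5 rose with CA, against 24.3% and 39.4% of all genes tested that way. With UDCA 8 fell and 4 rose, against 9.58% and 19%. For members that could not be measured that way, Mbl2 among them, the part of saturation in their calls was not tested.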
